A study of Arabidopsis thaliana with 3 samples.

Results

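Transcripts of 6 early flavonoid enzymes and 3 flavonol MYB factors were compared between pfd4 and Col-0 plants of Arabidopsis thaliana held in the cold. The genes were chosen by locus: CHS (AT5G13930), CHI (AT3G55120), F3H (AT3G51240), F3'H (AT5G07990), FLS1 (AT5G08640), UGT78D2 (AT5G17050), MYB11 (AT3G62610), MYB12 (AT2G47460) and MYB111 (AT5G49330). All 9 were on the array, among 29030 loci tested. F3'H was measured by 3 spots, F3H by 2 and the other 7 genes by 1 spot each, and the spots of a locus were averaged on each array.

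The mutant pfd4 carries an altered copy of PFD4, which encodes a prefoldin subunit. Prefoldin is a chaperone that delivers unfolded actin and tubulin to the chaperonin. Mutant and Col-0 plants were both 2 weeks old, had grown on a substrate mix at 22 °C under days of 16 h light, 8 h dark, and then spent 24 h at 4 °C. No organ is named in the labels, so the RNA is described as that of plants. Each of 3 two-colour arrays took RNA of both genotypes, with pfd4 RNA in Cy3 and Col-0 RNA in Hyper5 on arrays 1 and 2. The dye pair was reversed on array 3. Biological replication is stated in the labels, but not how many plants each RNA came from or whether they grew separately, so errors measure the spread between these arrays. Plants that stayed at 22 °C were not analysed here, and the values compare genotypes in the cold.

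Flavonoids are built from phenylalanine. The phenylpropanoid enzymes make coumaroyl-CoA, CHS joins it to malonyl-CoA to give a chalcone, CHI closes the ring to a flavanone, and F3H turns that into a dihydroflavonol. From there FLS1 leads to the flavonols kaempferol and quercetin, which UGT78D2 can glucosylate, while DFR and LDOX lead to anthocyanins. F3'H adds a hydroxyl to the B ring and so serves both branches. In Arabidopsis seedlings the R2R3-MYB factors MYB11, MYB12 and MYB111 switch on the early genes and FLS1, whereas complexes of MYB, bHLH and WD40 proteins switch on the late anthocyanin genes. Plants make these compounds as light screens and antioxidants, and anthocyanins commonly gather in cold and light.

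Each value is a log2 ratio with pfd4 on top and Col-0 below, so a positive value means a higher transcript level in pfd4. This direction is likely rather than certain, because the dyes are labelled and the numerator is not. It rests on PFD4 (AT1G08780), which stood at -3.08, -2.71 and -2.17 on arrays 1, 2 and 3. Were Col-0 on top instead, all directions given here would turn together. Ratios carry no level, so the genes cannot be ranked by abundance, and in RNA of plants a lower level per cell and fewer cells that express a gene cannot be told apart. Over all loci the ratios of array 2 had an SD of 0.55, and those of arrays 1 and 3 had SDs of 0.36 and 0.37.

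F3'H stood apart from the other 8 genes by its mean. It was above 0 on every array, with a mean of 1.30 on the log2 scale or 2.47-fold, although it did not pass the test across all loci. The other 8 had means between -0.16 and 0.33. Of the 9 genes, 6 (CHS, CHI, F3H, FLS1, MYB12 and MYB111) were above 0 on arrays 1 and 3 and below 0 on array 2. Of the 9 genes, 0 reached an adjusted p of 0.05 in limma, against 0% of all loci (0 of 29030). The smallest adjusted p over all loci was 0.314 in limma. PFD4 itself, with a mean of -2.65, had an adjusted p of 0.887 in limma. Failing this test therefore does not show that a gene is unchanged. At an unadjusted p under 0.05 F3'H alone remained, 1 of 9 or 11.1%, against 4.73% of all loci. The median of the 9 means was 0.02, and that over all loci 0.01.

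**Figure D1:**
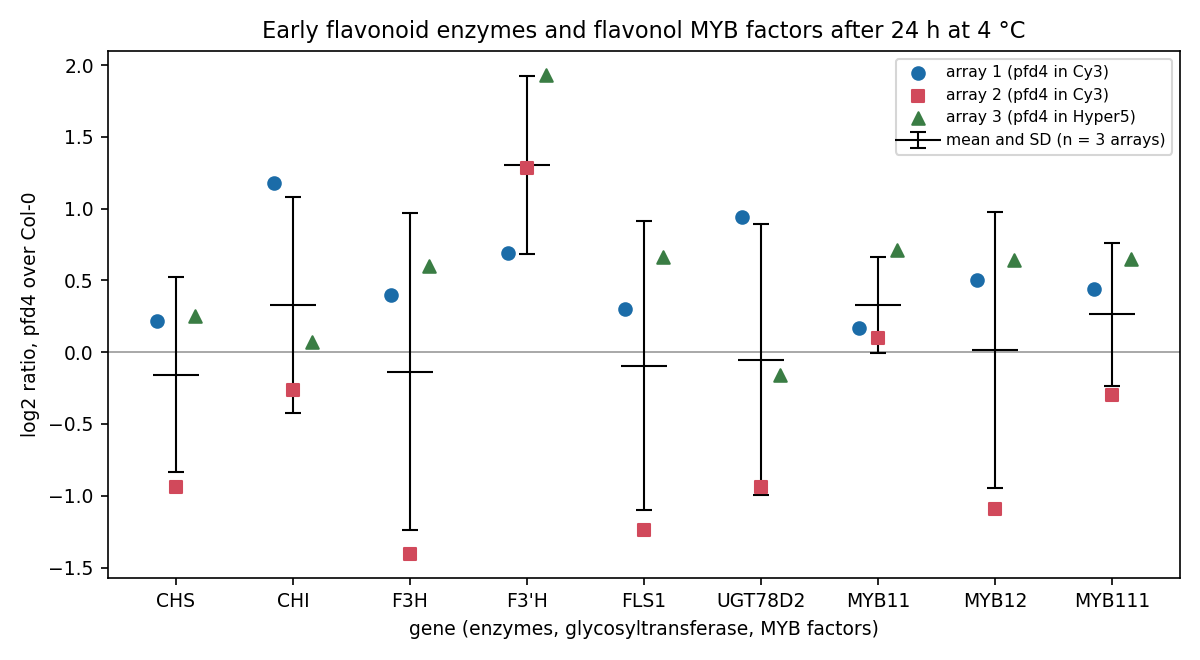
Log2 ratio of pfd4 over Col-0 (vertical axis) for the 9 genes (horizontal axis) on each array, with horizontal bars for the mean and whiskers for the SD over 3 arrays. F3'H lies above 0 on all 3 arrays, at 0.69, 1.28 and 1.93, whereas array 2 gives the lowest value of each of the other 8 genes.

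Among the enzymes, CHS, which opens the pathway, had log2 ratios of 0.22, -0.94 and 0.25 on arrays 1, 2 and 3. Arrays 1 and 3 differed by little and array 2 lay on the other side of 0. The mean was -0.16 ± 0.68 (SD, n = 3), with a 95% interval from -0.90 to 0.58 (adjusted p = 0.961 in limma). CHI, which isomerises the chalcone, had 1.18, -0.26 and 0.07, so that array 1 alone was far from 0 (0.33 ± 0.75, SD, n = 3, adjusted p = 0.922 in limma). The 1.18 on array 1 stood at percentile 99.31 of all loci on that array.

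F3H, the dioxygenase that makes dihydroflavonols, had 0.40, -1.41 and 0.60. Its 2 spots gave nearly the same values, 0.33 and 0.47 on array 1, -1.40 and -1.41 on array 2, and 0.67 and 0.53 on array 3. The swing between arrays was therefore much larger than the difference between spots. The mean was -0.14 ± 1.10 (SD, n = 3, 95% interval -1.27 to 1.001, adjusted p = 0.979 in limma), and the SD over arrays lay at percentile 98.1 of the SDs of all loci.

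FLS1, which commits dihydroflavonols to flavonols, followed F3H closely with 0.30, -1.24 and 0.66 (mean -0.09 ± 1.009, SD, n = 3, adjusted p = 0.986 in limma). UGT78D2, a flavonoid glucosyltransferase, had 0.94, -0.94 and -0.16. It was the sole gene of the 9 that was below 0 on array 3, and its mean was -0.05 ± 0.95 (SD, n = 3, adjusted p = 0.989 in limma). The intervals of these genes were wide: that of FLS1 ran from -1.14 to 0.95 and that of UGT78D2 from -1.04 to 0.93, so a difference of nearly 2-fold in either direction lies within them.

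F3'H, a cytochrome P450, had 0.69, 1.28 and 1.93 on arrays 1, 2 and 3. No array was near 0, and the smallest value was larger than the highest mean over 3 arrays among the other 8 genes. On array 1 itself, F3'H was below CHI (1.18) and UGT78D2 (0.94). Its 3 spots ran from 0.44 to 1.07 on array 1, from 1.09 to 1.63 on array 2 and from 1.55 to 2.30 on array 3, and their means were 1.16, 1.33 and 1.42. The mean of the locus was 1.30 ± 0.62 (SD, n = 3), with a 95% interval from 0.62 to 1.99 (unadjusted p = 0.00499 and adjusted p = 0.887 in limma). Its percentiles among all loci were 96.37, 98.36 and 99.98 on arrays 1, 2 and 3. It exceeded the median of the other 8 genes by 0.27, 2.22 and 1.31 on the 3 arrays in turn. With 3 arrays no exact sign-flip test could give a two-sided p below 0.25, and the distance was not tested.

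Of the MYB factors, MYB12 had log2 ratios of 0.50, -1.09 and 0.64. It lay with F3H and FLS1, with a mean of 0.02 ± 0.96 (SD, n = 3, 95% interval -0.98 to 1.02, adjusted p = 0.995 in limma). MYB111 had 0.44, -0.30 and 0.65 and so the same signs with a smaller dip on array 2 (0.26 ± 0.50, SD, n = 3, adjusted p = 0.911 in limma). MYB11 had 0.17, 0.10 and 0.71 and was the only gene besides F3'H with 1 sign on all 3 arrays. Its mean of 0.33 ± 0.33 (SD, n = 3, adjusted p = 0.887 in limma) had the narrowest interval of the 9, from -0.12 to 0.78. Over the 9 genes 2 had 1 sign throughout, or 22.2%, against 24.3% of all loci, and both were positive, against 12.3% of all loci.

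By mean log2 ratio the genes ran from F3'H at 1.30 through CHI and MYB11 (both 0.33), MYB111 (0.26), MYB12 (0.02), UGT78D2 (-0.05), FLS1 (-0.09) and F3H (-0.14) to CHS at -0.16. From CHI downwards every 2 neighbours in this order lay closer together than the SD of either gene over the arrays. The gap between F3'H and CHI was larger than the SD of both, and it was not tested. As folds of pfd4 over Col-0, CHI, MYB11 and MYB111 stood at 1.26, 1.25 and 1.20, and CHS, F3H and FLS1 at 0.90, 0.91 and 0.94.

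The spread over arrays set the genes apart as well. Among the SDs of all loci, those of F3H, FLS1, MYB12 and UGT78D2 lay at percentiles 98.1, 97.3, 96.8 and 96.6. Those of CHI, CHS and F3'H lay at 92.8, 90.2 and 87.6. MYB111 and MYB11 had the smallest SDs of the 9, at percentiles 80.1 and 62.5. The range between the highest and lowest array was 2.01 for F3H, 1.90 for FLS1 and 0.61 for MYB11.

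**Figure D2:**
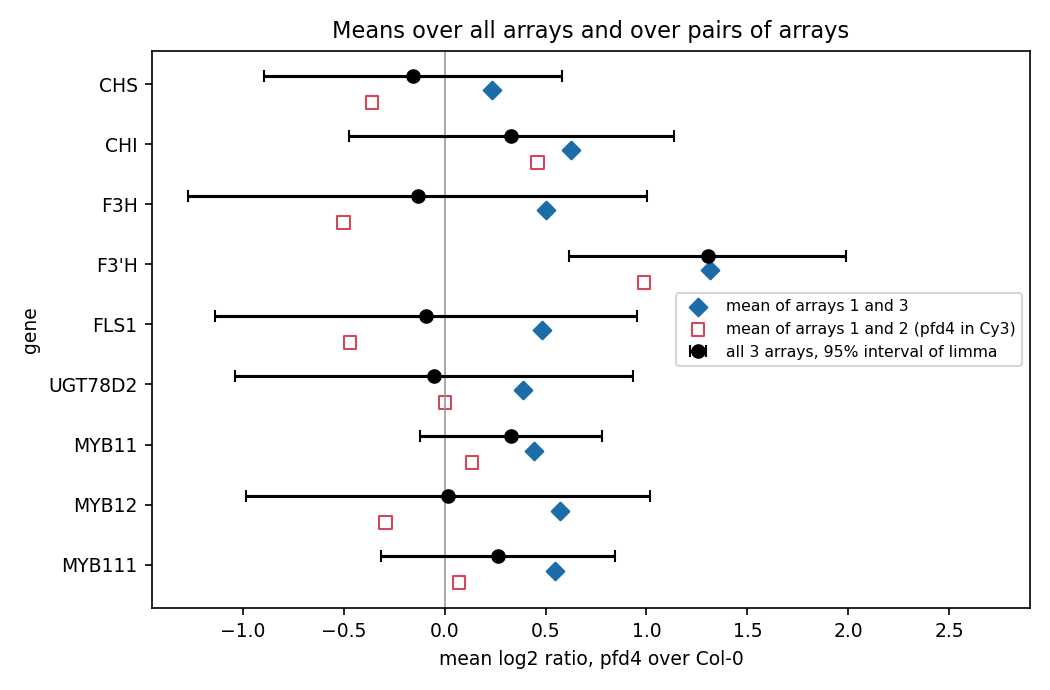
Mean log2 ratio of pfd4 over Col-0 (horizontal axis) for each gene (vertical axis): circles give all 3 arrays with the 95% interval of limma, diamonds the mean of arrays 1 and 3, and open squares that of arrays 1 and 2. The interval of F3'H alone, 0.62 to 1.99, lies wholly above 0, and every diamond lies above 0.

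The arrays differed in what they showed for these genes. On array 1 all 9 were positive, with a median of 0.44, where 48.0% of all loci were positive. On array 3, 8 of 9 were positive with a median of 0.64, where 50.2% of all loci were. On that array F3H, FLS1, MYB11, MYB12 and MYB111 all lay between percentiles 95.32 and 97.22 of all loci. CHS lay at 79.45, CHI at 59.58 and UGT78D2 at 27.73. On array 2 only F3'H and MYB11 were positive and the median was -0.94, where 51.0% of all loci were positive. F3H stood at percentile 1.86 of all loci on array 2, FLS1 at 2.55, MYB12 at 3.4, and CHS and UGT78D2 both at 4.57. F3H, FLS1 and MYB12 were at least 2-fold lower in pfd4 there, 3 of 9 genes or 33.3%, against 4.12% of all loci.

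The signs of CHS, CHI, F3H, FLS1, MYB12 and MYB111 (positive, negative, positive on arrays 1, 2 and 3) were shared by 66.7% of the 9 genes and by 7.91% of all loci. This pattern was chosen after the values were seen. Positive on both array 1 and array 3 were 8 of 9 genes, or 88.9%, against 20.4% of all loci. The genes sit in 1 pathway and were read from the same 3 pairs of RNA, so they are not independent of each other, and no test over the group was made.

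Without array 2 all 9 means were positive, from 0.24 for CHS to 1.31 for F3'H. F3H then had a mean of 0.50 (unadjusted p = 0.0479 in limma), MYB12 0.57 (unadjusted p = 0.0308), MYB111 0.55 (unadjusted p = 0.0382) and F3'H 1.31 (unadjusted p = 0.0255). These 4 of 9 genes, or 44.4%, compare with 1.64% of all loci at an unadjusted p under 0.05 in that fit, and the adjusted p was 0.999 for each. Array 2 was singled out after its values were seen. For F3H, MYB12 and MYB111 these p-values restate that arrays 1 and 3 lay close together at some distance above 0. CHS, at 0.22 and 0.25 on these arrays, lay closer together but nearer 0 (unadjusted p = 0.23 in limma). F3'H was above 0 on both of these arrays but further apart, at 0.69 and 1.93. Without array 1, F3'H was the sole gene of the 9 (11.1%) at an unadjusted p under 0.05 in limma, against 3.8% of all loci. Without array 3 it was again F3'H alone, against 12.8% of all loci. The means of CHS, F3H, FLS1 and UGT78D2 turned from negative to positive when array 2 was left out.

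Arrays 1 and 2 had the same dye order. All 9 genes were above 0 on array 1, and F3'H and MYB11 alone were above 0 on array 2. The mean of arrays 1 and 2 was -0.36 for CHS, -0.50 for F3H, -0.47 for FLS1 and -0.30 for MYB12, against values on array 3 of 0.25, 0.60, 0.66 and 0.64 for the same genes. F3'H had 0.99 over arrays 1 and 2 and 1.93 on array 3. Array 3 is the sole array with exchanged dyes, so the orientation of the dyes and the array cannot be told apart.

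**Figure D3:**
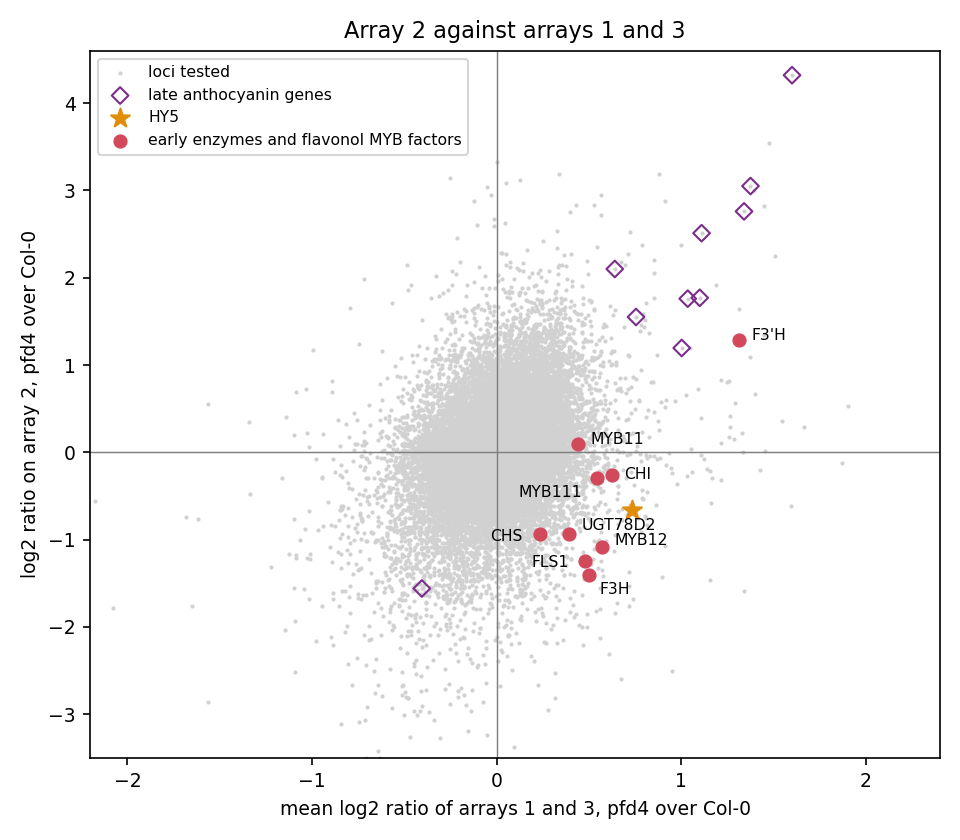
Log2 ratio on array 2 (vertical axis) against the mean of arrays 1 and 3 (horizontal axis), pfd4 over Col-0, for the loci tested (grey, 13 of which lie outside the axes), the 9 genes (filled circles), 10 late anthocyanin genes (diamonds) and HY5 (star). F3'H is at 1.28 on array 2, near the late gene TT19 at 1.20. The 10 late genes spread from -1.56 (BGLU10) to 4.32 (DFR) there. F3H, FLS1, MYB12, CHS and UGT78D2 lie between -1.41 and -0.94 on array 2.

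Likeness between genes was measured as the Euclidean distance between their 3 log2 ratios. F3H and FLS1 were 0.20 apart, which put FLS1 4th and F3H 5th among the 29029 other loci nearest to the other. MYB12 was 0.25 from FLS1 (7th) and 0.33 from F3H (10th). Seen from F3'H, FLS1 was 2.85 away (24950th) and F3H 3.02 away (26423rd). The distance covers 3 arrays only, and small values are common among loci near 0.

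The 2 loci nearest to each gene were named by a fixed rule. For both F3H and FLS1 the nearest was BBX32 (AT3G21150), annotated as a B-box zinc finger protein, with 0.43, -1.28 and 0.59. The second was CXE13, a carboxylesterase-family hydrolase, for F3H, and CCoAOMT1, a methyltransferase of lignin synthesis, for FLS1, with 0.23, -1.38 and 0.72. For F3'H the nearest of all loci was TT19 (AT5G17220), a glutathione transferase needed to bring anthocyanins into the vacuole, at 0.34, 1.20 and 1.67, followed by AT3G44970, annotated as a cytochrome P450, at 0.81, 0.81 and 1.69. CHS lay nearest to AT2G25605 and to the protein phosphatase gene FYPP3. CHI lay nearest to UGT73C1, a glycosyltransferase gene, and to the chorismate mutase gene CM1.

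The nearest loci of UGT78D2 were AT2G46140, annotated as a late embryogenesis abundant protein, and AT1G47395. Those of MYB11 were SPPL5 and NACA2, those of MYB12 were RAD52-2 and AT3G23510, and those of MYB111 were AT1G64340 and AT5G50370, annotated as an adenylate kinase.

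The rest of the pathway was read from 58 genes in 8 lists, and 0 of the 58 passed over all loci in limma (0% of all loci did). Late anthocyanin genes contrasted with the early ones on array 2. Of 10 late genes, 9 were positive on all 3 arrays, against 12.3% of all loci, and the same 9 had a positive mean with an unadjusted p under 0.05 in limma, against 2.14% of all loci. The median of the 10 stood at 0.46, 1.94 and 1.66 on the 3 arrays in turn. DFR, the first enzyme past the branch point, had the highest mean at 2.51 ± 1.64 (SD, n = 3). BGLU10, a glucosidase, had the lowest at -0.79 ± 0.77. After TT19, F3'H was nearest among the pathway genes to the malonyltransferase gene 5MAT at 0.35, 1.77 and 1.85. F3'H had its highest value on array 3, whereas DFR had 4.32 on array 2 and 2.07 on array 3.

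Among genes that feed or finish the flavonol branch, 5 of 8 phenylpropanoid enzymes and 7 of 12 other flavonol branch enzymes were below 0 on array 2 and had their lowest value there, as did 7 of the 9 genes and 28.1% of all loci. The signs positive, negative, positive were found in 4 of the 8 and 3 of the 12. Among 8 phenylpropanoid enzymes the median was 0.08, -0.90 and 0.14 on arrays 1, 2 and 3. PAL2, which deaminates phenylalanine, had the lowest mean, with 0.03, -2.17 and 0.01, while 4CL2, a coumarate ligase, had the highest, with 0.95, 0.95 and -0.26. Among the 12 other genes the median was 0.11, -0.77 and 0.02. CHIL, a CHI-like protein that aids CHS, had -0.10, -1.37 and 1.53 and so differed in sign between arrays 2 and 3 like F3H, with a wider swing.

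The glycosyltransferase gene UGT78D3, a near neighbour of UGT78D2 on the chromosome, had 0.31, -2.33 and 0.06. UGT78D1, a flavonol rhamnosyltransferase, had 0.75, 0.33 and -0.04. AT1G06000, annotated as a UDP-glucosyl transferase family protein, had 0.35, -2.19 and 0.31, and the glycosyltransferase gene UGT73C6 had 0.35, -0.52 and 0.32, with the signs of F3H and FLS1 on each array. RHM1, which makes the UDP-rhamnose used to decorate flavonols, had -0.13, -1.25 and -0.11, and the methyltransferase gene OMT1 had -0.22, -1.02 and 0.89.

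Among the relatives of FLS1, FLS3, FLS5 and FLS6 stayed within 0.22 of 0 on all arrays, FLS4 had 0.72, -0.15 and -0.26, and FLS2 had -0.81, -1.60 and -0.41 (mean -0.94 ± 0.61, SD, n = 3, adjusted p = 0.887 in limma). FLS relatives and the UGT78D genes are similar in sequence, so a spot may bind more than 1 of these transcripts, which was not tested.

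**Figure D4:**
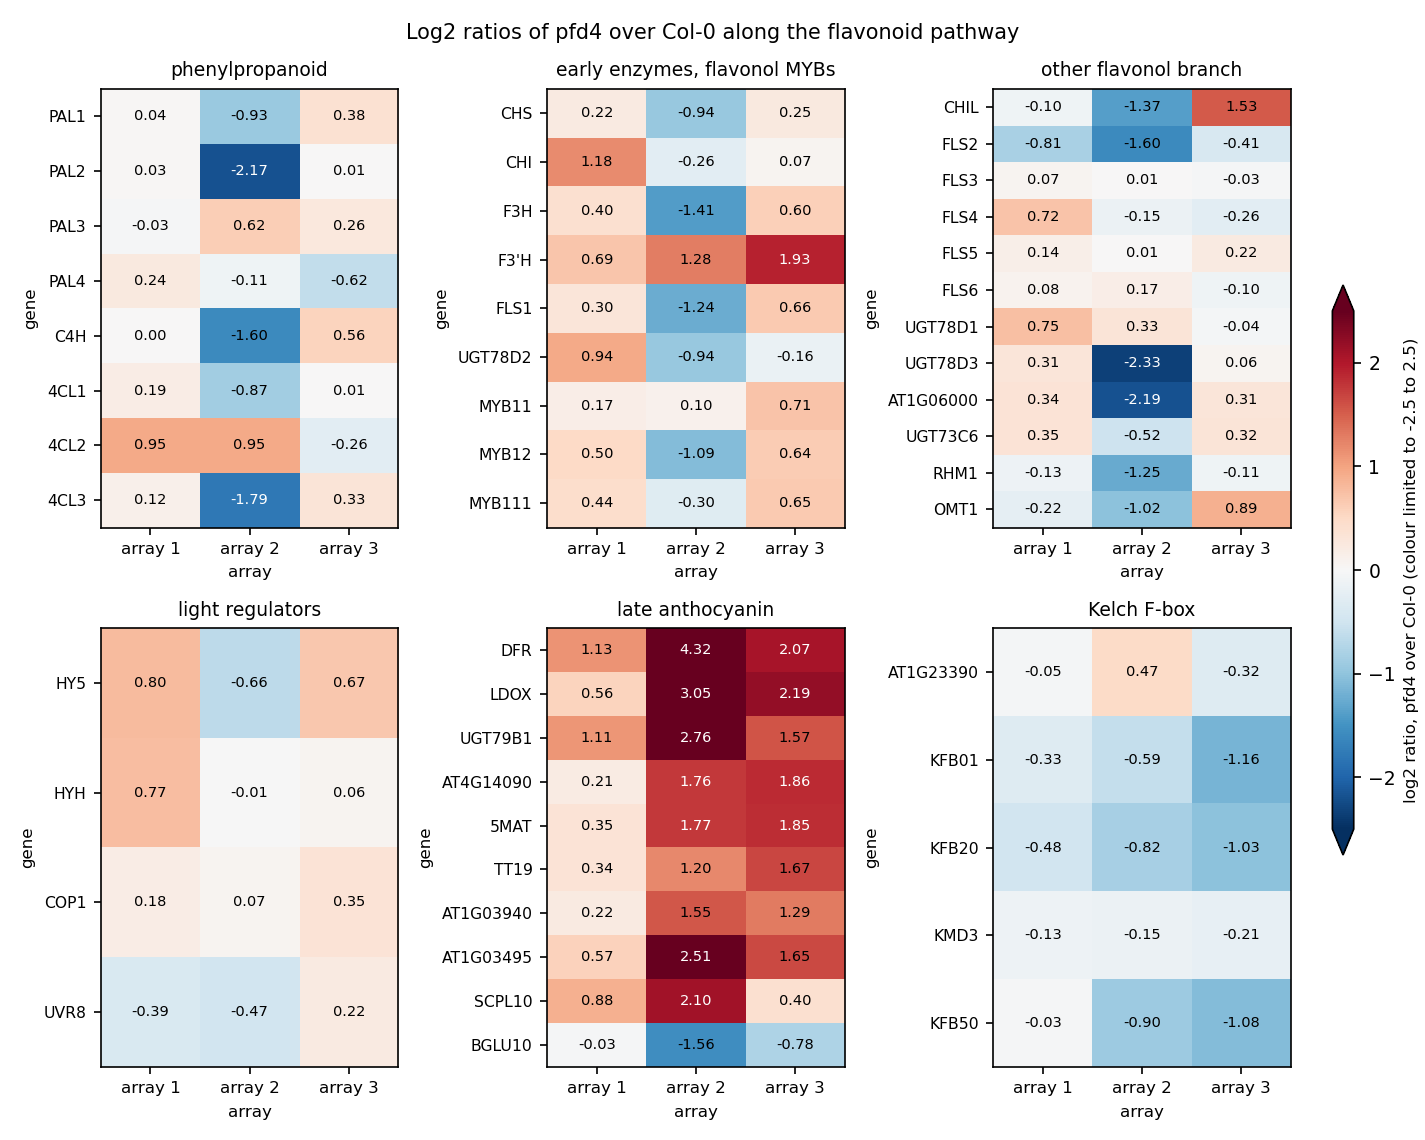
Log2 ratios of pfd4 over Col-0 on arrays 1, 2 and 3 (columns) for genes of 6 groups (rows), with colour for sign and size and the value in each cell. In the early genes F3'H alone has a value above 1 on array 2 (1.28), as 9 of the 10 late anthocyanin genes do.

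Regulators were set beside the MYB factors. HY5, a bZIP factor of light signalling that activates flavonol genes and MYB12, had 0.80, -0.66 and 0.67, the same signs as MYB12 and MYB111. It lay 0.53 from MYB12, as the 66th nearest locus, and 0.51 from MYB111, as the 630th. HYH, its homologue, had 0.77, -0.01 and 0.06, and COP1, a ubiquitin ligase that removes HY5, had 0.18, 0.07 and 0.35. The UV-B receptor gene UVR8 had -0.39, -0.47 and 0.22.

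Among 9 MYB, bHLH and WD40 regulators of the anthocyanin branch and related traits, the median on array 2 was 0.12, and their values there overlapped those of MYB11 and MYB111. PAP2 had the highest mean of the 9 (1.21 ± 0.90, SD, n = 3) and the WD40 gene TTG1 the lowest (-0.32 ± 0.31). Among 6 repressors MYB4 had the highest mean (0.34 ± 0.25) and SPL9 the lowest (-0.50 ± 0.55). Of the 9 regulators, 2 had an unadjusted p under 0.05 in limma, both with a positive mean. Of the 6 repressors 0 did, against 4.73% of all loci.

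Some Kelch F-box proteins mark phenylalanine ammonia-lyase or CHS for degradation. Of 5 genes of this family, 4 were negative on all 3 arrays: KFB20 with -0.49, -0.83 and -1.03 (mean -0.78 ± 0.28, SD, n = 3), KFB01 with -0.33, -0.60 and -1.16, KFB50 with -0.03, -0.90 and -1.08, and AT2G44130 with -0.13, -0.15 and -0.21. Of all loci, 12.1% were negative on all 3 arrays. The first 3 had an unadjusted p under 0.05 in limma, where 2.58% of all loci did with a negative mean, and the adjusted p was 0.887 for each. The fifth, AT1G23390, annotated as a Kelch repeat F-box protein, had -0.05, 0.47 and -0.32.

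Lists of other organs and tissues were read because the make-up of the plants could differ. Median log2 ratios on arrays 1, 2 and 3 were 0.07, -0.26 and 0.08 for 7 root markers, -0.20, -0.23 and -0.07 for 6 floral markers, and -0.30, -0.23 and -0.41 for 3 shoot epidermis markers. Of these 3, ATML1 and FDH were negative on all 3 arrays, and PDF1 had -0.21, -0.15 and 0.86. Genes of proanthocyanidin synthesis in the seed coat lay between -0.16 and 0.32 on every array, with BAN highest (mean 0.13) and TT10 lowest (-0.01). Root and floral markers also had their lowest medians on array 2, at -0.26 and -0.23, where the median of the 9 genes was -0.94. Their part in the values of the 9 genes was not tested.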

How the data were processed

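Log2 ratios of pfd4 over Col-0 were measured on 3 two-colour arrays. The authors deposited 1 log2 ratio per spot and array, with 2 decimals. They were normalized with limma, per the submitters' processing notes; version, settings, log base and numerator are not stated there. Base 2 was taken because limma writes log2 ratios. Both deposited tables held the same values. No intensities were used here, so brightness over background is unknown, and the number of arrays limits the precision. Of 45220 spots, 1417 controls and 5190 spots of transcripts that carry no locus code were set aside, and 38613 spots were averaged to 29030 loci. Names came from RefSeq (TAIR10.1), which held all 9 genes. Genome build: not given in the sources used here. Coordinates and sequences, promoter motifs included, were not analysed here.

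Each locus was tested against 0 with limma 3.58.1 in R 4.3.3 (lmFit and eBayes, two-sided, 2 residual and 2.68 prior degrees of freedom), adjusted by Benjamini-Hochberg over all loci. The estimated means alone were checked on simulated data with independent noise at each locus, which holds no shift shared between genes. Genes, lists and tests were chosen with earlier results of these data known. The text names the 9 genes, list members with the highest and lowest means, all flavonol branch, light and Kelch genes, and the 2 nearest loci of each gene; 5MAT and the epidermis markers were named after their values were seen. Alternatives were the combination of spots, single spots, scaling, centring, array weights, a dye term, a robust prior, array 3 turned and each replicate left out.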

Additional observations from a re-analysis of the deposited data

Results flagged for a closer look

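A spot outside the loci tested (transcript TA52512_3702) is annotated as flavonoid 3'-hydroxylase. Its log2 ratios of pfd4 over Col-0 were 0.50, 0.78 and 0.99 on arrays 1, 2 and 3, with a mean of 0.757 ± 0.246 (SD, n = 3, adjusted p = 0.95 over single spots in limma). The highest mean among 757 dark and negative control spots was 0.333, and this excess is why the spot is listed. On array 1 alone, 11 control spots reached 0.50 or more, and on arrays 2 and 3 none reached the spot's value. By its annotation the spot reads the transcript of F3'H itself, so it adds no further gene. Probe sequences were not examined, so whether it differs in position from the 3 spots of the locus is unknown.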

How the results depend on the processing

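In every alternative run, 0 of the 9 genes passed over all loci in limma, with a smallest adjusted p from 0.334 (without replicate 3) to 0.999 (without replicate 2). F3'H kept a positive mean in all 12 alternatives, but with the sign of array 3 turned it was 0.014. PFD4, on which the direction rests, stood at -3.08, -2.71 and -2.17 on arrays 1, 2 and 3 as deposited. Turning array 3 would give PFD4 a sign there opposite to that on arrays 1 and 2. Of the 72 means under alternatives that keep 3 arrays and their direction, 3 changed sign: UGT78D2 to 0.08 with array weights, and F3H to 0.049 and FLS1 to 0.095 with a dye term. With array 3 turned, UGT78D2 was 0.053, MYB11 -0.15, MYB12 -0.41 and MYB111 -0.17, and 0 genes had 1 sign on all arrays, against 2 as reported. Leaving out each replicate moved the mean of CHS between -0.36 and 0.24, CHI between -0.10 and 0.63, F3H between -0.50 and 0.50, FLS1 between -0.47 and 0.48, UGT78D2 between -0.55 and 0.39, MYB12 between -0.30 and 0.57, MYB11 between 0.14 and 0.44, MYB111 between 0.07 and 0.55, and F3'H between 0.99 and 1.61. The count with 1 sign was then 2 to 8 of 9, highest without replicate 2 and over 2 arrays by construction. The median of the 9 means ran from -0.23 without replicate 1 to 0.50 without replicate 2. The cause of these changes was not tested. Differences of the size seen in CHS, FLS1 or UGT78D2 could not be resolved with 3 arrays.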
